A study of Mus musculus with 22 samples.

Results

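Germline genes that DNA methylation is known to keep silent in body cells were followed in fibroblasts labelled Lsh KO and in wild-type controls. The set has 36 named genes, chosen by matching the gene symbol of the RPKM tables to a list of members, out of 21032 gene symbols in all. Of the 36, 27 had values in all 4 RNA libraries, 7 had values in the replicate 1 libraries alone, and Meioc and Taf7l2 had no row under these symbols. Libraries KO1 and KO2 came from primary mouse embryonic fibroblasts labelled Lsh-/- (Lsh KO), and KO below stands for the libraries with that label. Libraries WT1 and WT2 came from Lsh+/+ (wild type) fibroblasts, and all were taken from the body of C57BL/6 embryos at E13.5 and used at passage 3 to 4. The labels give no further allele, promoter or agent, and do not say which part of Lsh was removed. They call the libraries biological replicates without saying whether a number marks a shared litter or day, so p-values measure the spread between these libraries, which may be technical. DNA methylation itself and the Pol II, H3K27me3 and H3K4me3 samples of the series are not analysed here.

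Lsh, the product of the gene Hells, is a chromatin remodeller of the SNF2 family that is needed for normal DNA methylation. Many genes of germ cells have promoters rich in CpG dinucleotides that are methylated after implantation and stay off in body cells. Their proteins serve the piRNA pathway, in which PIWI proteins and small RNAs silence transposons, and meiosis, in which the synaptonemal complex, meiotic cohesins and recombination enzymes join and shuffle homologous chromosomes. Repressors known to act on such promoters include the DNA methyltransferases and a Polycomb-type complex containing E2F6, MGA and MAX; MGA and MAX bind the E-box CACGTG.

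Promoter windows are shown first, because they are where silencing of these genes is known to act. The list names genes known to be silenced by DNA methylation, so features of their promoters are not independent of the choice. RefSeq windows of 300 bases (250 before to 50 after the start, build GRCm38.p6) were matched by symbol for 31 of the 36 genes, giving 40 windows, of which some overlap each other. A few are printed 5′ to 3′ with CpG dinucleotides in capitals: Ddx4, Mael and Sycp3 hold both motifs searched, Tex101 was the gene read in KO libraries alone, and Tdrkh was among the genes with a higher level. Their positions are chr13:112652261-112652560 on the minus strand for Ddx4, chr1:166238695-166238994 on the minus strand for Mael, chr10:88459337-88459636 on the plus strand for Sycp3, chr7:24672001-24672300 on the minus strand for Tex101 and chr3:94412994-94413293 on the plus strand for Tdrkh.
Ddx4: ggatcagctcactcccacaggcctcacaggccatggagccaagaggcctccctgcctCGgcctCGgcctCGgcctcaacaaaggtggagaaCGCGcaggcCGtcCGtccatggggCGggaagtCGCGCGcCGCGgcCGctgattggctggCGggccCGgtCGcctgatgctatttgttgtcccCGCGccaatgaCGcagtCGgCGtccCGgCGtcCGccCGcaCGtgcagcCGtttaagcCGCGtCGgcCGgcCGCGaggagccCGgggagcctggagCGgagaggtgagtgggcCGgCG
Mael: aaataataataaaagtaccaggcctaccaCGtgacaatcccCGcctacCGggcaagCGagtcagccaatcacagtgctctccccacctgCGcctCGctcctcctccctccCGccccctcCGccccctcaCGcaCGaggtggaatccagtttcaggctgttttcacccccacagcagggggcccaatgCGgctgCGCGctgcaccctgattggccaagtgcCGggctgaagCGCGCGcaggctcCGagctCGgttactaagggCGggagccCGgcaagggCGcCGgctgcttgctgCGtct
Sycp3: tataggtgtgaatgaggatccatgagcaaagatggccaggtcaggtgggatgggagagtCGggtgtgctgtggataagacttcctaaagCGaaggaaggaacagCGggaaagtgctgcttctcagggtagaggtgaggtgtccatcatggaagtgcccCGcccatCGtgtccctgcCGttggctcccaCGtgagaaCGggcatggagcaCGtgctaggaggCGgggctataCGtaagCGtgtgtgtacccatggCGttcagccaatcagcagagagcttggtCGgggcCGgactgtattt
Tex101: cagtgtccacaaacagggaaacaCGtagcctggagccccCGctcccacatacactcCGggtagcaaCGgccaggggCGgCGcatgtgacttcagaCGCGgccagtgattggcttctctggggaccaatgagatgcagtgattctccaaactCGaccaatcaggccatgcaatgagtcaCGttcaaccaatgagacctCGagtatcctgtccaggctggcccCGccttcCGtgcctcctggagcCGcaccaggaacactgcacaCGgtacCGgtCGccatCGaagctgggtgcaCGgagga
Tdrkh: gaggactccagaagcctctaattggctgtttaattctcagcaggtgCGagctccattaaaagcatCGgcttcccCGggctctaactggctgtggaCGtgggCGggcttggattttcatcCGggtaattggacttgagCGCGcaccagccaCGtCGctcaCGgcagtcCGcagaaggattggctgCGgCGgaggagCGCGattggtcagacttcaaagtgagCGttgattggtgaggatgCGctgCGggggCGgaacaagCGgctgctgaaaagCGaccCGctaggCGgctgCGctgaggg

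The windows of these genes were rich in CpG. The median window held 20 CpGs with a range of 0 to 38, against a median of 7 over all 32851 windows of the table, and the median ratio of observed to expected CpG was 0.71 against 0.38. Ddx4 held 38 CpGs, Tdrkh 25, Mael 24, Tex101 19 and Sycp3 15. The E-box CACGTG, which reads the same on both strands, was in 17 of the 40 windows (42.5%), against 7.15% of all windows. In Sycp3 it began 64 and 43 bases before the start, and in Ddx4 29 bases before it. The E2F-type site TCCCGC, searched on both strands, was in 16 windows (40%), against 20% of all windows, and 0 of its matches overlapped an E-box match. Among windows with at least 15 CpGs the E-box was in 51.6% for the germline genes and 11.3% for all, whereas TCCCGC was in 48.4% and 45.4%. The 28 windows of the 23 matched genes below 0.1 RPKM in every library had a median of 18.5 CpGs, and the 10 windows of the 6 genes at or above that level, 3 of them of Tdrd7, had 24. Their ranges, 0 to 30 and 4 to 38 CpGs, overlapped.

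**Figure D1:**
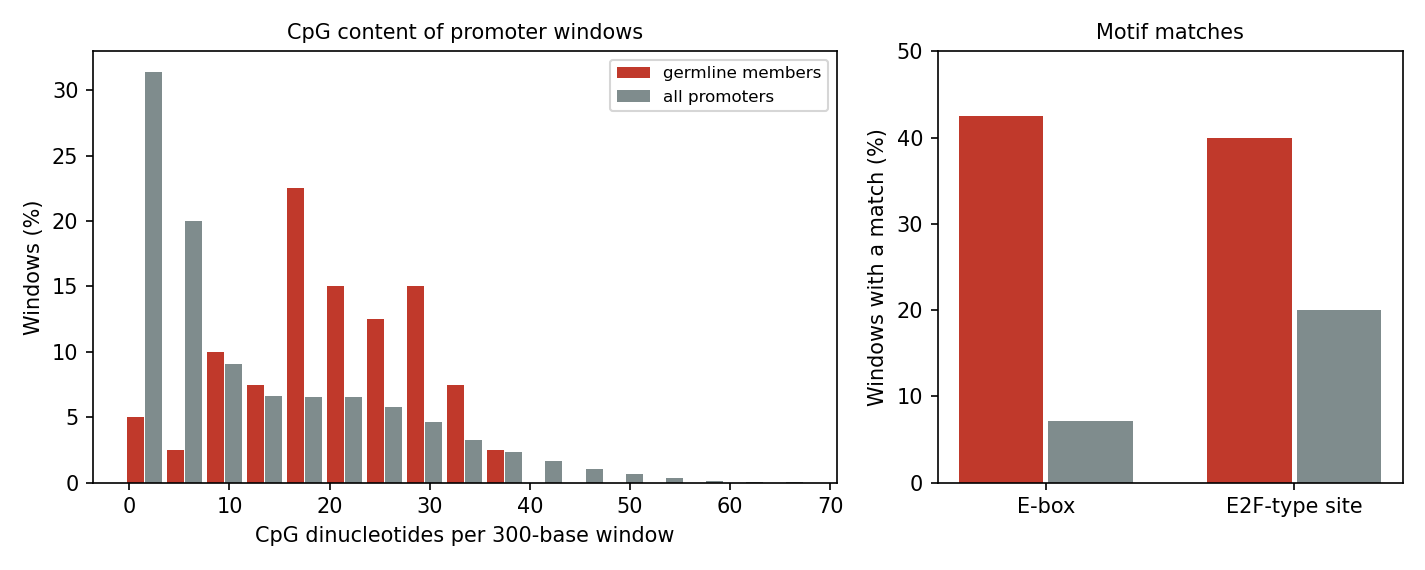
Promoter windows of the germline genes (40 windows of 31 genes) and of all genes in the RefSeq table (32851 windows). Left, the percentage of windows by number of CpG dinucleotides in bins of 4; right, the percentage of windows with the E-box CACGTG and with the E2F-type site TCCCGC. The germline windows hold more CpG, and 42.5% of them hold the E-box against 7.15% of all windows.

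The libraries held 122.5 M mapped reads for KO1, 136.1 M for KO2, 132.2 M for WT1 and 176.6 M for WT2, as recovered from the steps of the RPKM values (reads per kilobase of transcript, scaled to mapped reads). Hells was at 0.43 and 0.55 RPKM in KO1 and KO2, against 0.865 and 1.06 RPKM in WT1 and WT2, which is 0.497 and 0.521 of the WT level within each replicate number. The log2 change on the low-level scale defined below was -0.91 (SE 0.513, n = 2 each, limma adjusted p of 1, and 0.28 in the fit that adds the replicate number). Hells transcript was thus still read in both libraries labelled KO, and its lower level did not pass the threshold. These values cover the whole transcript, and the labels do not give the deleted part, so they do not check the label of a null. Fibroblast markers had summed levels of 3180 and 3130 RPKM in KO1 and KO2 and 2970 and 3190 RPKM in WT1 and WT2. Single markers were less even, with Pdgfra at 2.46 and 23.1 RPKM in KO and 0.987 and 23.2 RPKM in WT. In the low-level fit limma called 8 of the 12 markers higher and 2 lower in replicate 2. There 42.7% of all genes were called in either direction. Blood and macrophage markers had sums of 8.4 and 86.5 RPKM in KO1 and KO2 and 60.8 and 177 RPKM in WT1 and WT2. Of these markers, 12 of 13 were lower in KO within both numbers (29% of all genes). By genotype, the low-level limma fit called 0 of the 13, with the replicate number added or not. With the number the lowest limma adjusted p was 0.0784, and 11 had an unadjusted p below 0.05, against 0 without it. Of all 14499 genes 1425 had such an unadjusted p with the number and 89 without it. The same fit called 11 of 13 higher in replicate 2, as it did 32.9% of all genes. Once the number was added, the fit with the higher pseudocount called 4 of 11 lower in KO. There 0.673% of all genes were called in either direction. The part of the blood and macrophage markers in the results below was not tested. Rows on X and Y are not used here. Genes that most cells express can be listed near 0: Ppia was at 0 in KO1 and WT1, and Gapdh at 0.298 and 0.179 RPKM in KO1 and KO2 and at 0.16 and 0 RPKM in WT1 and WT2. A listed 0 is thus not proof of silence. In bulk RNA, fewer expressing cells and less RNA per cell cannot be told apart.

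Most of the germline genes lay close to 0 in both genotypes. Of the 34 with a row, 25 stayed below 0.05 RPKM in every library and 9 reached it (26.5%, against 67.9% of all 21032 genes). At higher limits, 7 reached 0.1 RPKM somewhere (20.6% against 64.3%), 5 reached 0.5 RPKM (14.7% against 55.1%) and 2, Tdrd7 and Syce2, reached 1 RPKM (5.88% against 50.3%). The 7 genes with replicate 1 rows alone were listed at 0 in KO1 and WT1 (20.6% of the 34, against 20.5% of all genes at 0 in every library with a row). These 7 cannot be read as silent, for the reason given above. Another 20 had values in all libraries and stayed below 0.1 RPKM, and 7 went against a label of silenced genes, transcribed above 0.1 RPKM in WT or KO cells or in both. Among the 27 genes with rows in all libraries, which needed a read in at least 1 replicate 2 library, 16 were above 0 in KO1 and 24 in KO2, against 19 in WT1 and 26 in WT2. These counts rise in the order of the mapped reads given above (KO1, WT1, KO2, WT2), and the part of depth was not tested. Their median level was 0.0102 and 0.0169 RPKM in KO1 and KO2, against 0.00769 and 0.0276 RPKM in WT1 and WT2. Over all genes the median was 1.68 and 2.46 RPKM in KO and 1.74 and 2.42 RPKM in WT. The 20 genes of the 27 that never reached 0.1 RPKM summed to 0.179 and 0.343 RPKM in KO1 and KO2, against 0.135 and 0.456 RPKM in WT1 and WT2, so the genotypes overlapped. One read over a transcript of 2 kb is 0.00408 RPKM in KO1, 0.00367 in KO2, 0.00378 in WT1 and 0.00283 in WT2.

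**Figure D2:**
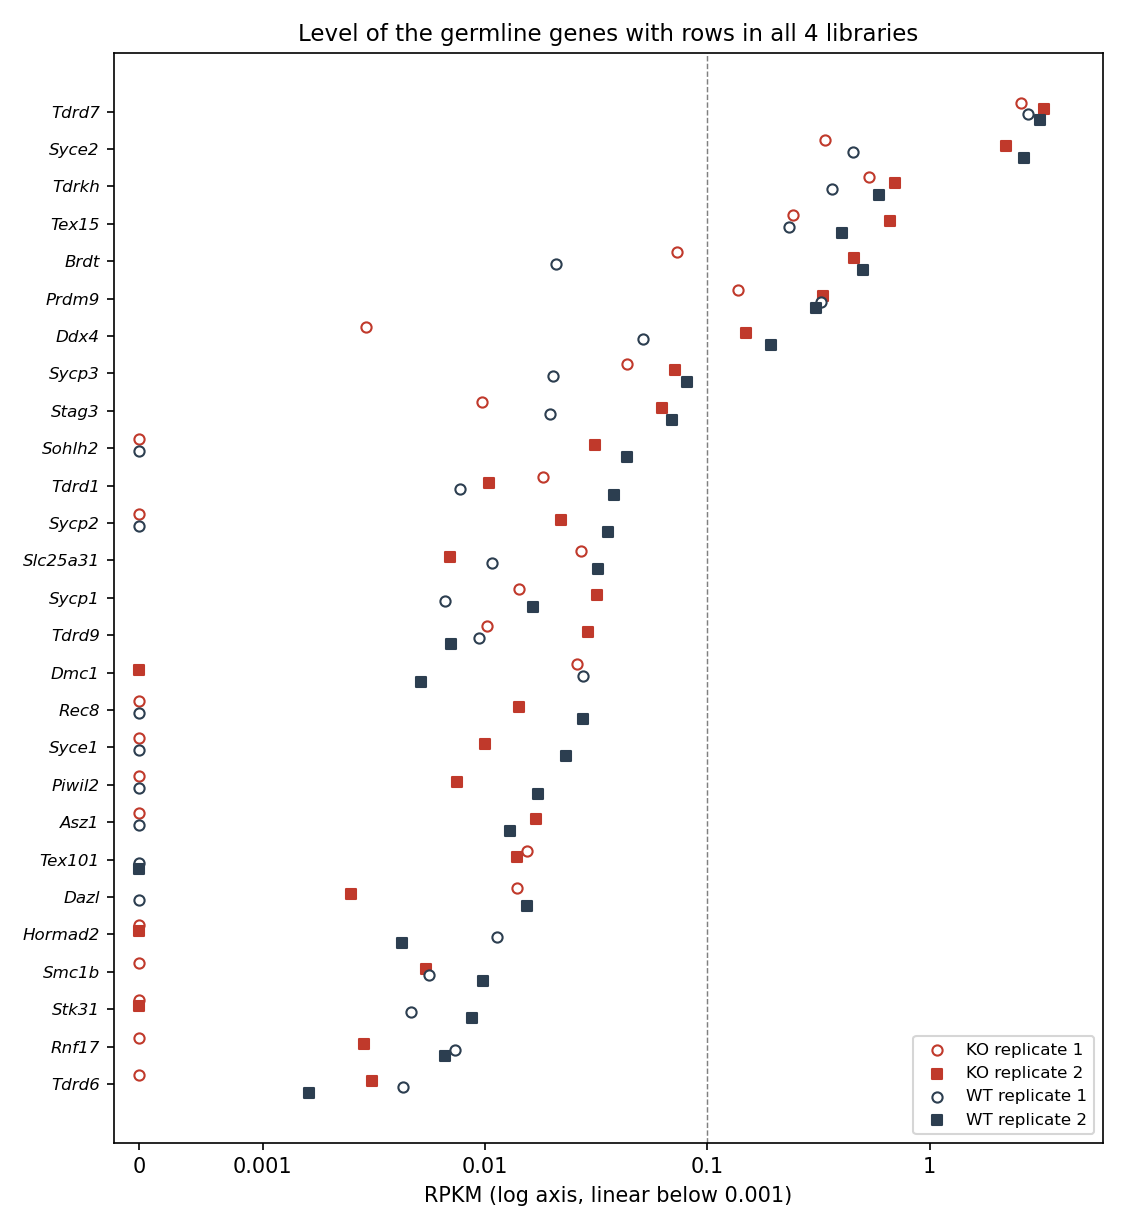
RPKM of the 27 germline genes with rows in all 4 libraries, on a log axis that is linear below 0.001, with genes ordered by their highest value. Red points are KO and dark points WT libraries, open circles replicate 1 and filled squares replicate 2, and the dashed line marks 0.1 RPKM. Only 7 genes reach the line, and for most genes the red and dark points interleave.

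The piRNA pathway was represented by 13 genes, of which 10 stayed below 0.1 RPKM. Mael, Piwil1, Piwil4 and Mov10l1, a transposon silencing factor, a pair of PIWI proteins and a helicase for piRNA precursors, were listed at 0 in KO1 and WT1 and had no replicate 2 row. Piwil2, the PIWI protein of early germ cells, was at 0 and 0.00748 RPKM in KO1 and KO2, against 0 and 0.0173 RPKM in WT1 and WT2. Its values correspond to at least 1 read in KO2 and 3 in WT2, the lowest whole numbers that give them. Asz1, a partner of PIWI proteins at mitochondria, was at 0 and 0.0169 RPKM in KO and 0 and 0.013 RPKM in WT. A gene read in neither replicate 2 library has no row there, so reads in replicate 2 were the condition for these genes to have 4 values.

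Ddx4, the germ cell helicase Vasa (mm9 chromosome 13, 113388541 to 113442519, minus strand), was at 0.00293 and 0.15 RPKM in KO1 and KO2, against 0.0516 and 0.193 RPKM in WT1 and WT2. In lowest whole reads this was 1 and 57 in KO, with 95% exact Poisson intervals of 0.0253 to 5.57 and 43.2 to 73.9, against 19 and 95 in WT, with 11.4 to 29.7 and 76.9 to 116. It was lower in KO within both numbers, while KO2 stood above WT1, so the genotypes overlapped. On the low-level scale it differed by -0.61 in log2 (SE 0.888, n = 2 each, limma adjusted p of 1).

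Tudor domain proteins, which bind methylated PIWI proteins, included the piRNA genes with the highest levels. Tdrd7, a component of RNA granules also known from the lens (chromosome 4, 46000334 to 46047632, plus strand), was at 2.59 and 3.29 RPKM in KO1 and KO2, against 2.76 and 3.13 RPKM in WT1 and WT2. The genotypes overlapped, with KO at 2.94 ± 0.495 and WT at 2.94 ± 0.265 RPKM (SD, n = 2 each), and the log2 change was -0.01 (SE 0.35, limma). Tdrkh, which anchors PIWI proteins at mitochondria (chromosome 3, 94217240 to 94235422, plus strand), was at 0.536 and 0.696 RPKM in KO, against 0.363 and 0.594 RPKM in WT. It was higher in KO by 1.48 times for replicate 1 and 1.17 times for replicate 2, but KO1 lay below WT2. The log2 change was 0.36 (SE 0.569, limma adjusted p of 1).

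The other tudor genes were near 0. Tdrd1, a scaffold of germ cell granules, was at 0.0183 and 0.0104 RPKM in KO1 and KO2, against 0.00769 and 0.038 RPKM in WT1 and WT2, with opposite directions in the replicate numbers. Tdrd9, a helicase with a tudor domain, was at 0.0102 and 0.029 RPKM in KO, against 0.00944 and 0.00707 RPKM in WT. Its groups did not overlap, with 6 and 19 lowest reads in KO and 6 and 6 in WT, and the replicate 1 values were nearly equal. Tdrd6 reached 0.00429 RPKM and Rnf17, a tudor protein with a RING finger, 0.00735 RPKM. Rnf17 was lower in both KO libraries, at 0 and 2 lowest reads, than in WT, at 5 and 6.

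Of the synaptonemal complex genes, 4 of 5 stayed below 0.1 RPKM. Sycp1, the transverse filament that zips the chromosome axes, was at 0.0143 and 0.0321 RPKM in KO1 and KO2, against 0.0066 and 0.0165 RPKM in WT1 and WT2. This was about 2 times higher within each number (2.16 and 1.95), on 6 and 15 lowest reads in KO and 3 and 10 in WT, and KO1 lay below WT2. Sycp3, of the lateral elements, was at 0.0437 and 0.072 RPKM in KO, against 0.0202 and 0.0808 RPKM in WT, and its log2 change was 0.16 (SE 0.531, limma adjusted p of 1). Sycp3 shares 424 bases with Chpt1 on the other strand, at 2.94 and 4.77 RPKM in KO and 2.85 and 3.38 RPKM in WT. No source used here says that the counting used strand, so reads of both genes cannot be told apart there. Sycp2, its lateral partner, was at 0 and 0.022 RPKM in KO and 0 and 0.0358 RPKM in WT, and Syce1 of the central element at 0 and 0.01 RPKM in KO and 0 and 0.0232 RPKM in WT.

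Syce2, also of the central element (chromosome 8, 87396010 to 87411346, plus strand), was the exception. Summed over its 4 transcript rows it was at 0.339 and 2.21 RPKM in KO1 and KO2, against 0.455 and 2.66 RPKM in WT1 and WT2. KO was 0.744 of WT for replicate 1 and 0.831 for replicate 2, while replicate 2 was 6.53 times replicate 1 in KO and 5.84 times in WT. Both replicate 2 values stood above both replicate 1 values, and the KO against WT log2 change was -0.32 (SE 1.26, limma adjusted p of 1). In the fit that adds the replicate number the SE was 0.251 and the limma adjusted p 0.792. Gcdh, on the other strand, overlaps 1060 bases of it and was at 1.64 and 2.21 RPKM in KO and 1.84 and 2.3 RPKM in WT. The part of Gcdh reads in the Syce2 values was not tested.

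All 3 meiotic cohesin genes stayed below 0.1 RPKM. Stag3, the meiotic partner of the cohesin ring, was at 0.00966 and 0.0625 RPKM in KO1 and KO2, against 0.0197 and 0.0696 RPKM in WT1 and WT2. Both KO values were below the WT value of the same number, and KO2 was above WT1 (log2 change -0.16, SE 0.569, limma adjusted p of 1). Rec8, the cleavable cohesin of meiosis, was at 0 and 0.0143 RPKM in KO and 0 and 0.0276 RPKM in WT. Smc1b, a core subunit, had 0 and 3 lowest reads in KO and 3 and 7 in WT. Of the 3 cohesin genes, 0 were higher in KO within both numbers (23% of all genes) and 2 were lower (29% of all genes).

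Of the 6 recombination and meiotic entry genes with a row, 4 stayed below 0.1 RPKM, and Prdm9 and Tex15 were above it. Spo11, which makes the DNA breaks of meiosis, and Hormad1, which marks unpaired axes, were listed at 0 in KO1 and WT1 and had no replicate 2 row. Dmc1, the meiotic recombinase, was at 0.0261 and 0 RPKM in KO, against 0.0276 and 0.00517 RPKM in WT. Hormad2 was at 0 in both KO libraries, against 0.0113 and 0.00422 RPKM in WT1 and WT2, which is 2 and 1 lowest reads. These counts may be at or under the limit of 3 reads, so no fold is given.

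Prdm9, the histone methyltransferase that places recombination hotspots (chromosome 17, 15680043 to 15700288, minus strand), was at 0.137 and 0.333 RPKM in KO1 and KO2, against 0.326 and 0.309 RPKM in WT1 and WT2. KO1 stood apart, with 58 lowest reads (interval 44 to 75), against 157 in KO2, 149 in WT1 and 189 in WT2. KO was 0.42 of WT for replicate 1 and 1.08 of it for replicate 2, and the log2 change was -0.46 (SE 0.641, limma adjusted p of 1). Tex15, needed for meiotic recombination and transposon silencing (chromosome 8, 34681016 to 34696058, plus strand), was at 0.242 and 0.662 RPKM in KO, against 0.234 and 0.405 RPKM in WT. It was 1.03 times WT for replicate 1 and 1.64 times for replicate 2, where it had 758 lowest reads in KO2 and 601 in WT2. KO1 lay below WT2, and the log2 change was 0.34 (SE 0.725, limma adjusted p of 1). Both genes were thus transcribed at a low level in cells of either genotype.

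Regulators and other germ cell genes gave few reads, with 1 exception. Brdt, the testis bromodomain protein that reads acetylated histones (chromosome 5, 107760213 to 107816078, plus strand), was at 0.0728 and 0.458 RPKM in KO1 and KO2, against 0.0209 and 0.501 RPKM in WT1 and WT2. KO was 3.49 times WT for replicate 1, on 42 (interval 30.3 to 56.8) and 13 (6.92 to 22.2) lowest reads, and 0.915 times for replicate 2, on 294 and 417. The directions were opposite, and the log2 change was 0.34 (SE 1.31, limma adjusted p of 1). Sohlh2, a transcription factor of early germ cells, was at 0 and 0.0313 RPKM in KO, against 0 and 0.0434 RPKM in WT. Dazl, the RNA-binding protein that marks committed germ cells, was at 0.0139 and 0.0025 RPKM in KO1 and KO2, against 0 and 0.0154 RPKM in WT1 and WT2. In lowest reads Dazl had 5 and 1 in KO and 0 and 8 in WT, and its groups overlapped.

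Tex101, a surface protein of germ cells (chromosome 7, 25453031 to 25457070, minus strand), was the 1 gene read in both KO libraries and listed at 0 in both WT libraries. It was at 0.0155 and 0.0139 RPKM in KO1 and KO2, which is at least 1 read each, and 0 in WT1 and WT2. All 4 values may lie at or under the limit of 3 reads, so no fold is given. Over all 16266 genes with rows in all libraries 0.799% met this rule, and 0.436% met the reverse, which 2 germline genes, Hormad2 and Stk31, met. Stk31, a kinase-like tudor protein, was at 0 in KO1 and KO2, against 0.00467 and 0.00874 RPKM in WT1 and WT2 (2 and 5 lowest reads). Slc25a31, the ADP/ATP carrier of germ cells and a known target of promoter methylation, was at 0.0271 and 0.00696 RPKM in KO, against 0.0108 and 0.0322 RPKM in WT, with opposite directions. Dpep3, a dipeptidase of the testis, was listed at 0 in KO1 and WT1 and had no replicate 2 row. Meioc and Taf7l2 have rows by accession under the older symbols Gm1564 and 4933416C03Rik, outside the rule. Gm1564 was at 0.0161 and 0.0273 RPKM in KO and 0.0116 and 0.052 RPKM in WT, and 4933416C03Rik at 0 and 0.00326 RPKM in KO and 0 and 0.01 RPKM in WT.

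**Figure D3:**
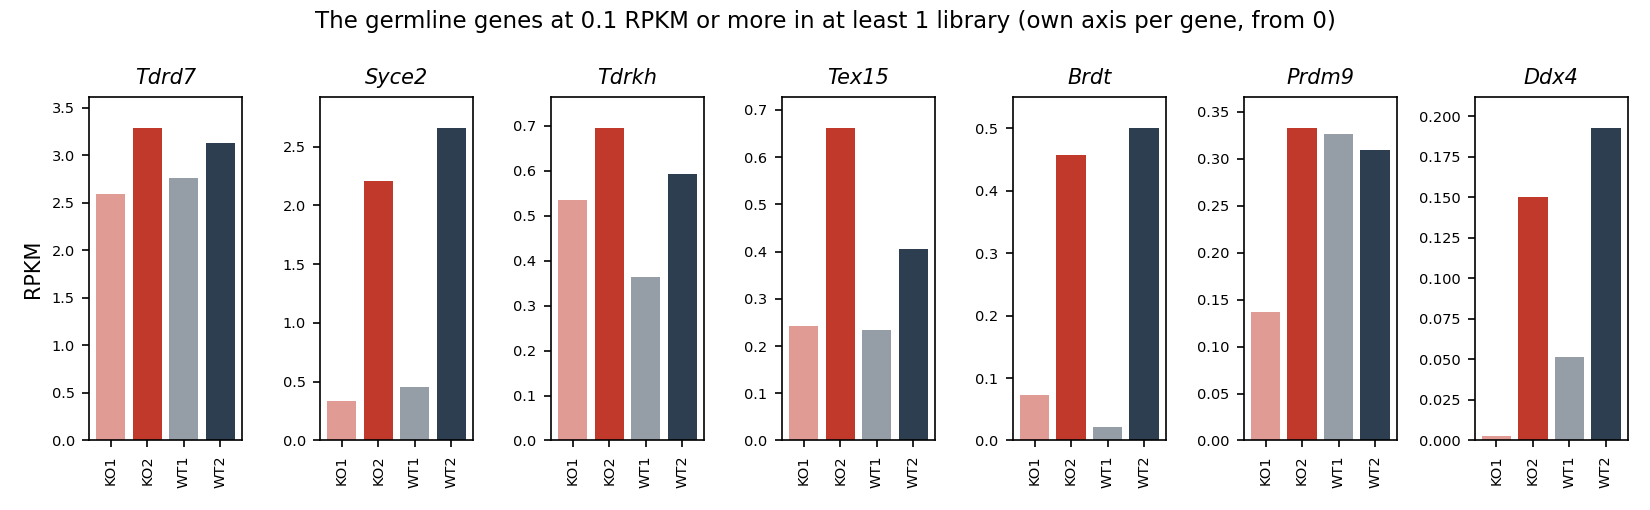
RPKM in each library of the 7 germline genes that reached 0.1 RPKM, each on its own axis from 0. Red bars are KO and dark bars WT libraries, paler for replicate 1. Ddx4 and Brdt reached 0.1 RPKM in the replicate 2 libraries alone. The choice of these genes thus favours replicate 2, and no count between the numbers is given.

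The comparison of KO with WT asks whether these genes differ in level in the libraries labelled Lsh KO. No germline gene passed the threshold in any fit. In limma on log2(RPKM + 0.5), keeping genes that reached 0.5 RPKM in 2 or more libraries, 3 of the 27 were tested (Tdrd7, Tdrkh and Syce2) and 0 were called, where 0% of all 11147 genes were called and 41 had an unadjusted p below 0.05. A low-level fit on log2(RPKM + 0.05), keeping genes that reached 0.02 RPKM in 2 or more, tested 13 of the 27. It called 0 of the 13, of which 0 had an unadjusted p below 0.05, and 0% of all 14499 genes, of which 89 did. Replicate 1 libraries had 26886 rows and replicate 2 libraries 21136, and the labels do not say what a number marks. For this reason the fits were repeated with the number as a term. They then called 0 of 3 and 0 of 13 germline genes, where 0.673% and 0.276% of all genes were called, and the lowest limma adjusted p among the 13 was 0.633. Without the number every gene had the same limma adjusted p, so the values given above for single genes do not set them apart. The SEs given above for germline genes without the number include the difference between the numbers. Fold changes on these scales understate the change of low genes. A p that misses the threshold in 2 libraries per genotype does not show that the levels were equal.

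Direction was mixed. Of the 27 genes, 5 were higher in KO within both numbers (18.5%, against 23% of all genes): Tdrkh, Sycp1, Tdrd9, Tex15 and Tex101. Lower within both numbers were 8 (29.6%, against 29%): Ddx4, Syce2, Stag3, Smc1b, Dmc1, Hormad2, Rnf17 and Stk31. The other 14 (51.9%, against 48%) differed in direction between the numbers or had equal values in 1 of them. These 3 shares lie within 5 points of those of all genes. For replicate 1 alone 10 were higher and 11 lower in KO (all genes 40.3% higher and 54.1% lower). For replicate 2 alone 9 were higher and 18 lower (all genes 51% higher and 49% lower). WT2 was the deepest library, with 176.6 M mapped reads against 136.1 M in KO2, and most of the 27 rest on few reads. A row there needed a read in KO2 or WT2, and 3 of the 27 were at 0 in KO2 and 1 in WT2. The part of depth in the count of 18 was not tested. Groups of 2 libraries did not overlap for Tdrd9 and Tex101 with KO above WT (7.41%, against 7.8% of all genes) and for Hormad2, Rnf17, Smc1b and Stk31 with KO below WT (14.8%, against 8.02%), all at 0.029 RPKM or less. A difference of at least 1.5 times in both numbers with the higher value at 0.05 RPKM or more was met by 0 of the 27 in either direction, against 2.35% of all genes for higher and 2.6% for lower. Over the 13 genes of the low-level fit the median log2 change was -0.09, against -0.02 over all genes fitted, and within replicates 1 and 2 it was 0 and -0.12.

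**Figure D4:**
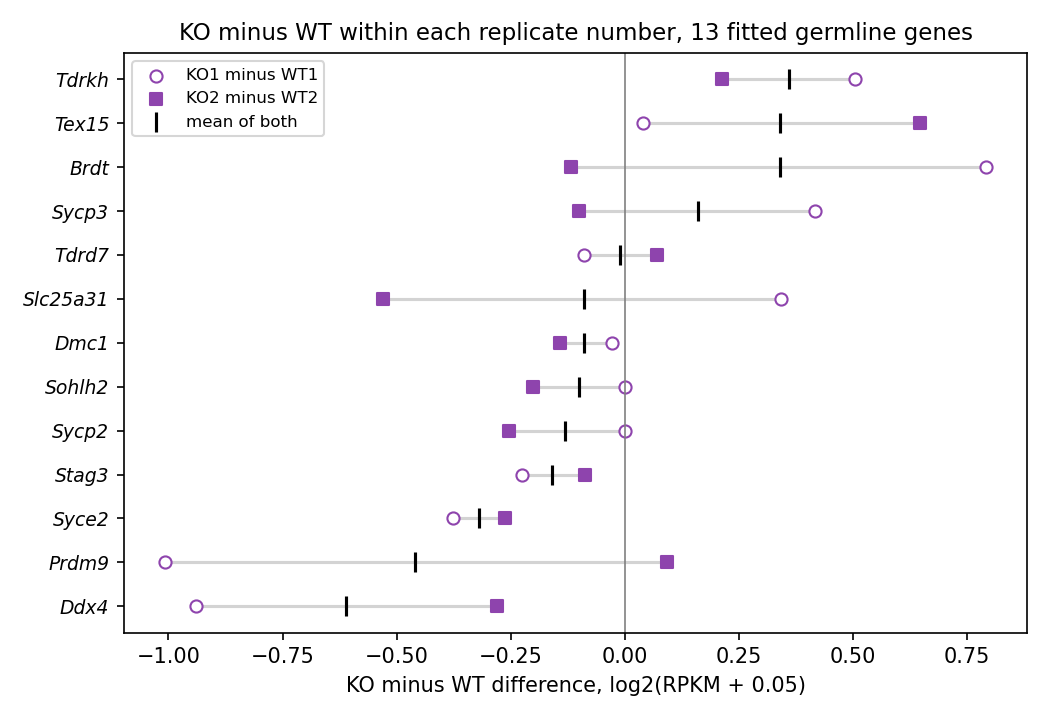
KO minus WT difference on log2(RPKM + 0.05) for the 13 germline genes of the low-level fit, as KO1 minus WT1 (open circles), KO2 minus WT2 (squares) and their mean (ticks). Only Tdrkh and Tex15 lie above 0 in both numbers, and Brdt, Prdm9 and Slc25a31 are among those with opposite signs.

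Every replicate 2 row was above 0 in at least 1 genotype, so a gene's level in replicate 2 helped to decide whether it had 4 values, and no count over the 27 is given between the numbers. In the low-level fit with genotype and number as terms, limma called 4 of 13, all higher in replicate 2, where 42.7% of all genes were called and 32.9% called higher. All genes of this fit had met that row condition, and Sycp2, Sohlh2 and Stag3 passed its filter through replicate 2 alone. The count, its direction and the adjusted p-values below are thus no independent support for a higher level in replicate 2. Brdt was higher by 2.5 on the log2 scale (SE 0.352, adjusted p 0.0011), Syce2 by 2.48 (SE 0.251, adjusted p 0.000249), Ddx4 by 1.59 (SE 0.33, adjusted p 0.00622) and Tex15 by 0.98 (SE 0.322, adjusted p 0.0386). The share of called genes is no higher than over all genes. This contrast was added after the values were seen.

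Other genes of the same processes were taken from lists chosen with earlier results of these data known. They also gave 0 calls for KO against WT in the low-level limma fit, without or with the number as a term. Of 19 further piRNA pathway genes 15 had a row and 9 were tested; of 37 further meiotic genes 28 had a row and 18 were tested. With the number as a term 0 of the 9 and 1 of the 18 had an unadjusted p below 0.05, and without it 0. Over all 14499 genes 1425 did with the number as a term. Mov10, a relative of the germline helicase, was at 1.3 and 2.95 RPKM in KO1 and KO2, against 1.7 and 3.72 RPKM in WT1 and WT2. Trip13, an ATPase that remodels HORMA proteins, was at 1.6 and 3.27 RPKM in KO, against 2.96 and 3.91 RPKM in WT (limma adjusted p 0.474 with the number as a term). Tex19.1, a germ cell gene known to be controlled by methylation, was at 0.0329 and 0.0253 RPKM in KO, against 0 and 0.00977 RPKM in WT. Tdrd5, of the same list, lay the other way, at 0.00474 and 0.00427 RPKM in KO, against 0.0154 and 0.0296 RPKM in WT. Rows in all libraries were there for 10 further piRNA and 22 further meiotic genes. In both numbers alike, KO values were above WT for 3 of the 10 and below for 4. For the 22 this was 5 above and 6 below (all genes 23% above and 29% below).

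The list of 22 repressors of germline genes includes Hells itself. Dnmt3l, at 0.0489 and 0.00879 RPKM in KO and 0.0136 and 0.00678 RPKM in WT, was near 0 and not tested. The others were transcribed in both genotypes, and limma called 0 of 21 tested in the low-level fit, with the number as a term or without it. With the number 2, Hells and Uhrf1, had an unadjusted limma p below 0.05, and without it 0. The 2 of 21 lie near the share over all genes, 1425 of 14499. E2f6 was at 12.7 and 9.79 RPKM in KO1 and KO2, against 12.3 and 10.6 RPKM in WT1 and WT2, and Mga, its partner, at 3.87 and 4.16 RPKM in KO, against 3.68 and 3.24 RPKM in WT. Dnmt1, which copies methylation after replication, had 1.16 and 2.54 RPKM in KO, against 1.49 and 2.98 RPKM in WT. Uhrf1, which recruits it, was at 1.99 and 5.88 RPKM in KO, against 3.66 and 7.64 RPKM in WT, and missed the threshold (limma adjusted p 0.336 with the number as a term). For 4 of the 22 KO exceeded WT in both numbers (23% of all genes), and for 10, Hells among them, it lay below (29% of all genes).

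Embryos of this stage hold primordial germ cells, so their markers were read beside the germline genes. Of 16 markers with a row, 5 were listed at 0 in every library with a row, among them Pou5f1, Dppa3 and Nanos2. The list summed to 144 and 283 RPKM in KO1 and KO2, against 159 and 293 RPKM in WT1 and WT2, nearly all of it Ifitm3, an interferon-induced gene that fibroblasts also express. Next came Sox2, at 0.133 and 1.83 RPKM in KO, against 1.58 and 1.49 RPKM in WT. Prdm1 was at 1.62 and 0.239 RPKM in KO, against 0.921 and 0.104 RPKM in WT, and missed the threshold (limma adjusted p 0.362 with the number as a term). Nanog, a pluripotency factor, was at 5.91e-12 RPKM, less than 1 read, in KO1 and 0.0758 RPKM in KO2, against 0.0167 and 0.163 RPKM in WT1 and WT2. Kit, a receptor of germ and other cells, was at 0.161 and 0.149 RPKM in KO, against 0.0351 and 0.0876 RPKM in WT, and missed the threshold (limma adjusted p 0.406 with the number as a term). In the list 9 genes had rows in all libraries, of which 3 were above WT in both numbers (23% of all genes) and 3 below (29%). The low-level limma fit called 0 of 7 tested, with the number as a term or without it. With the number 2 had an unadjusted p below 0.05 (1425 of all 14499 genes), and without it 0.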

How the data were processed

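RNA from 4 libraries of the 22 samples was used. Per the labels' protocols, RNA was treated with DNase and RiboMinus, poly-A selected and read on an Illumina Genome Analyzer IIx. RPKM per RefSeq transcript were computed and deposited by the authors; the deposited readme names Cufflinks, and the submitters' processing notes name Partek and mm9. The aligner is not given in these sources. Replicate 1 libraries had 26886 rows and replicate 2 libraries 21136, and 0 of the replicate 2 rows were at 0 in both genotypes.

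Rows were summed per symbol and fitted with limma 3.58.1 in R 4.3.3 (lmFit, eBayes with trend and robust variance, two-sided, Benjamini-Hochberg threshold 0.05) with genotype as the term, at pseudocounts of 0.5 and 0.05. The code was tested on simulated data. Depth was taken from olfactory receptor loci under 1200 bases, where at least 96% of values gave whole reads within 0.02. Lowest whole reads are the smallest whole numbers in the ratio of a gene's depth-scaled values, and true numbers are these or a multiple. Intervals and the limit of 3 reads cover counting error only. Full values were given for members past the threshold, at 0.5 RPKM or more, differing 1.5 times the same way in both numbers, or above 0 in both libraries of 1 genotype alone. Values of other members, and the genes named from other lists, were added after their values were seen. The members and lists were chosen with earlier results of these data known. Promoter sequences come from RefSeq (GRCm38.p6), and coordinates of genes from the files (mm9).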

Additional observations from a re-analysis of the deposited data

How the results depend on the processing

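Germline genes called stayed at 0 under every alternative run, in both fits. With the replicate block 75 genes of all were called where genotype alone called 0, and 40 with the block and a pseudocount of 0.1. In the low-level fit the block called 40 and the block with a pseudocount of 0.5 called 4. Whether a shared number pairs libraries is not in the labels; across genes, KO and WT deviations from their group means correlated at 0.875. The median change of the 13 germline genes, -0.09, was -0.24 with a pseudocount of 0.01. It ran from -0.47 to 0.61 with 1 library left out, where the difference between the numbers enters. Genes were filtered anew in those runs, so each such median covers fewer than the 13. A gene's range below covers only the runs in which it was kept. Of the changes of single genes, 121 kept their sign and side of the threshold and 18 changed sign. Adding the replicate number or changing the filter alone leaves each log2 change as it was, so many of the 121 could not move. Runs with genotype alone called 0 of all genes, so the side of the threshold says little. Tex15, at 0 without WT replicate 1, counts as kept. The sign changes came with 1 library left out, except that of Tdrd7, 0.03 with median-ratio scaling. With 1 library left out, ranges were -1.14 to 1.82 for Brdt, -1.57 to 0.35 for Ddx4, -0.33 to 0.22 for Dmc1, -0.98 to 0.06 for Prdm9, -0.31 to 0.13 for Slc25a31, -0.55 to 0.25 for Sohlh2, -0.55 to 0.3 for Stag3, -1.59 to 0.95 for Syce2, -0.52 to 0.14 for Sycp2, -0.29 to 0.61 for Sycp3, -0.18 to 0.16 for Tdrd7, 0.04 to 0.68 for Tdrkh and -0.3 to 0.99 for Tex15. The count of 5 genes higher in KO within both numbers was 0 when 1.5 times and 0.05 RPKM were asked for. In single numbers, an alternative chosen after seeing the data, it was 10 and 9. For other sign changes the cause was not tested. Depth limits most of these genes, which rest on few reads.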

Other observations

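Genes of later germ cell stages were also near 0. Of 22 spermatid genes, 12 were listed at 0 in every library with a row, among them the protamines Prm1 and Prm2 and the transition protein Tnp1, and 19 stayed below 0.1 RPKM. Crem, a transcription factor that body cells also use, was the highest at 5.51 and 2.99 RPKM in KO1 and KO2, against 3.77 and 2.78 RPKM in WT1 and WT2. The tubulin genes Tuba3a and Tuba3b, known from testis, were at 0 in both WT libraries; Tuba3a was at 0.00541 and 0.0195 RPKM in KO, and Tuba3b at 0 and 0.0187 RPKM. Spaca1, of the sperm acrosome, was at 0.00761 and 0 RPKM in KO, against 0.0423 and 0.0581 RPKM in WT, and missed the threshold (limma adjusted p 0.362 with the number as a term). Of 17 oocyte genes with a row, 9 were at 0 in every library with a row and 0.43 RPKM was the highest level, that of Lhx8 in KO1. Dppa2, a chromatin factor of early embryos and germ cells, was at 0.0925 and 0.0114 RPKM in KO and at 0 in both WT libraries.

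Of 13 somatic genes of the gonad and adrenal, 11 had rows in all libraries. Of these 2 exceeded WT in both numbers (23% of all genes) and 1 lay below (29% of all genes). In the low-level fit limma called 0 of 11, with the number as a term (lowest adjusted p 0.245, 2 with an unadjusted p below 0.05) or without it (1). Of all 14499 genes 1425 had such an unadjusted p with the number and 89 without it. Hsd3b1, a steroid dehydrogenase, was at 0.229 and 1.63 RPKM in KO1 and KO2, against 0.049 and 0.0153 RPKM in WT1 and WT2, and missed the threshold (limma adjusted p 0.423 with the number as a term). Nr5a1, a regulator of steroid-making cells, was at 0 and 0.312 RPKM in KO, against 0 and 0.159 RPKM in WT. Dhh, a hedgehog ligand of the testis, was at 0.0517 and 0.174 RPKM in KO, against 0.214 and 0.39 RPKM in WT. Wt1, of gonad, kidney and mesothelium, was at 0.0792 and 3.68 RPKM in KO, against 0.666 and 3.05 RPKM in WT. The genes named here were chosen after their values were seen.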
